A study of Homo sapiens with 24 samples.

Results

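The comparison described here set FaDu spheroids given heat followed by radiation (HT + RT) against control FaDu spheroids, across all genes. It rests on 6 of the 24 RNA-Seq libraries of the series, 3 per group, taken by the line, treatment and replicate number in their labels. Spheroids are rounded multicellular aggregates, and here each held cells of 1 line only, a subline of FaDu, an established human squamous cell carcinoma line of the hypopharynx. HT + RT spheroids received 42.5 °C for 60 min (HT) and, directly afterwards, a single X-ray dose of 7 Gy (RT), whereas controls were neither heated nor irradiated. FaDu spheroids given HT alone or RT alone (7 Gy), and HT + RT and control spheroids of SAS, another head and neck squamous carcinoma line irradiated with 10 Gy, served for comparison. RNA of all groups was taken 0.5 h after treatment, so the values are early transcript levels in spheroids without stroma or blood vessels.

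As background, heat unfolds proteins, and the freed transcription factor HSF1 then forms trimers that bind heat shock elements, short inverted repeats upstream of genes for chaperones. The inducible HSP70 proteins, their J-domain partners, the small heat shock proteins and the nucleotide exchange factors made in this way hold and refold damaged proteins or pass them to the ubiquitin system. Stress kinases also switch on immediate early genes, which need no new protein synthesis and encode transcription factors such as FOS and EGR1, and ionising radiation activates p53 and the repair of DNA double-strand breaks.

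The cell type of the FaDu libraries was checked against markers of squamous epithelium. SAS spheroids carry these markers too, so they do not check the FaDu label against SAS. All 16 markers had counts, and their summed level was 13366 ± 204 CPM (counts scaled to library size, as set out below) (SD, n = 3) in control spheroids and 15079 ± 111 CPM after HT + RT. KRT17, a keratin of squamous cells, was the most abundant with 4568 ± 609 CPM in controls. Markers of fibroblasts summed to 45.5 ± 5.7 CPM in controls, nearly all from the collagen gene COL1A1, and 8 of 9 lay under 1 CPM. Endothelial markers summed to 9.16 ± 0.492 CPM, with CDH5 highest and TEK at 0 in all 6 libraries, and immune markers to 7.98 ± 0.46 CPM, with CD14 highest and 3 (CD3E, CD3D and MS4A1) at 0. Of the 42 markers, 23 had enough counts for the test between HT + RT and control spheroids described next, all 16 squamous ones among them, and 0 were called by edgeR. KRT16 (0.69, edgeR adjusted p = 0.00668) and TP63 (-0.44, edgeR adjusted p = 0.00562) passed the adjusted p and were under the fold threshold.

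The deposited tables give whole-number read counts for 57500 genes. The control libraries (replicates 1, 2 and 3) held 17690374, 17763912 and 21862472 counts, and the HT + RT libraries 17221775, 15203484 and 29452514. Replicate 1 stood apart in both groups. Its chi-square per degree of freedom against the other replicates was 15.1 to 15.9 in controls and 16.9 to 20.4 after HT + RT, whereas replicates 2 and 3 differed by 3.51 and 3.74. The count of changed genes is therefore given with and without the replicate 1 libraries. Levels are CPM scaled by trimmed mean of M-values (TMM) factors over the 12 FaDu libraries, given as mean ± SD over 3 replicates, and fold changes are on the log2 scale.

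Most of the large changes after HT + RT were rises. In CPM the largest were those of the HSP70 genes HSPA1B, HSPA6 and HSPA1A and of DNAJB1, the J-domain partner of HSP70, and by log2 fold change HSPA7 and HSPA6 stood highest. By edgeR's quasi-likelihood test, 910 of 15896 genes tested were called changed (5.72% of those tested), which needed an adjusted p under 0.05 together with a log2 fold change beyond 1 in either direction. Of these, 808 rose (5.08%) and 102 fell (0.642%). The libraries of the groups did not overlap in 806 of the 808 and in all 102. A lack of overlap therefore does not set apart the called genes named below. This excess of rises depends on the fold threshold, since with an adjusted p alone 1513 genes rose and 1554 fell by edgeR. The median log2 fold change was 0.01 over all genes tested, 1.93 over the genes called up and -1.22 over those called down. For 384 genes the rise was over 2 on the log2 scale and for 98 over 4, with the 12 genes that had only 0 counts in the controls taken at the lower bound set by 3 counts over that group. Only 5 genes had a log2 fold change under -2. Without the replicate 1 libraries of both groups, a fit chosen after the data were seen, 1133 genes rose and 191 fell. The counts also depend on the filter, with 1338 and 149 when no filter on low counts was used. With at least 10 counts in every library they were 411 and 73. Since whole spheroids were sequenced, fewer cells with a transcript and less RNA of it per cell cannot be told apart.

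**Figure D1:**
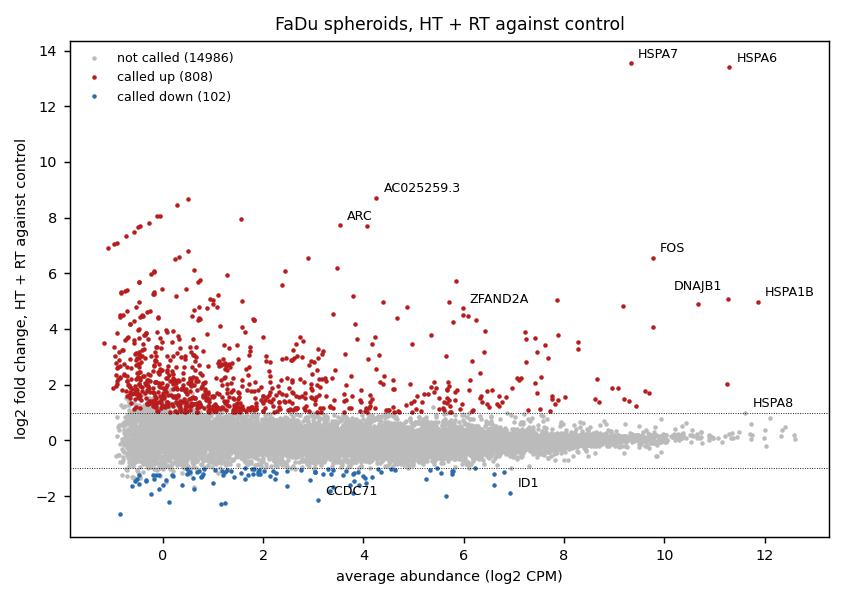
Log2 fold change of HT + RT against control FaDu spheroids (vertical axis) against average abundance in log2 CPM (horizontal axis), 1 point per gene tested; 808 genes called up are red, 102 called down blue, and dotted lines mark a log2 fold change of 1 and -1. HSPA6 and HSPA7 lie apart from all other genes at the top, and the called genes are mostly above 0.

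The genes called up together made up 0.888% ± 0.0152 (SD, n = 3) of all CPM in controls, 1.07% ± 0.147 after RT, 5.27% ± 0.586 after HT and 5.67% ± 0.508 after HT + RT. The genes called down held 0.198% ± 0.00289 in controls and 0.0801% ± 0.00639 after HT + RT.

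The HSP70 and HSP110 chaperones were led by HSPA6, which encodes a strictly inducible HSP70. It had 0.556, 0.543 and 0.309 CPM in the control libraries and 4556, 5134 and 5357 CPM after HT + RT. All controls were thus under 1 CPM and no treated library came near them (log2 fold change 13.40, standard error 0.17, edgeR adjusted p = 3.66e-10). HSPA7, listed as a pseudogene, rested on 6 control counts and reached 1287 ± 27.2 CPM (SD, n = 3), with a log2 fold change of 13.55 (edgeR adjusted p = 1.37e-10). It is nearly identical to HSPA6, so how reads divided between the pair is uncertain.

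HSPA1A and HSPA1B, the neighbouring and almost identical genes of the main inducible HSP70, started from much higher levels. HSPA1B had 259, 186 and 244 CPM in controls and 6498, 7423 and 7671 CPM after HT + RT, and HSPA1A 122, 84.3 and 115 and 2788, 3267 and 3387 CPM. In each of these genes every treated library lay far above every control, with log2 fold changes of 4.97 (edgeR adjusted p = 8.40e-08) and 4.88 (edgeR adjusted p = 1.60e-07). The division of reads between them is uncertain too. HSPA1L, which lies beside them on chromosome 6 and is best known from testis, rose from 2.32 ± 0.768 to 48.6 ± 6.95 CPM.

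Of the 13 HSP70 and HSP110 genes tested, 5 rose and 0 fell, with a median log2 fold change of 0.62 against 0.01 over all genes. Over all genes tested 5.08% rose and 0.642% fell, the shares to set beside the count of every list against controls from here on. The other member called was HSPH1, an HSP110 that releases nucleotide from HSP70 (227 ± 38.6 to 845 ± 130.2 CPM, log2 fold change 1.90). HSPA8, the constitutive HSP70 of the cytosol, had a log2 fold change of 0.99, just under the threshold of 1, with 2109.9 ± 253 CPM in controls and 4166 ± 98.2 CPM after HT + RT. Per kilobase of annotated exon, HSPA8 stood at 435 CPM and HSPA1B at 91.1 CPM in controls, whereas after HT + RT the order was reversed, with 859 and 2855 CPM. The summed level of the 13 genes was 3261 ± 377 CPM (SD, n = 3) in controls and 21019 ± 1452 CPM after HT + RT.

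**Figure D2:**
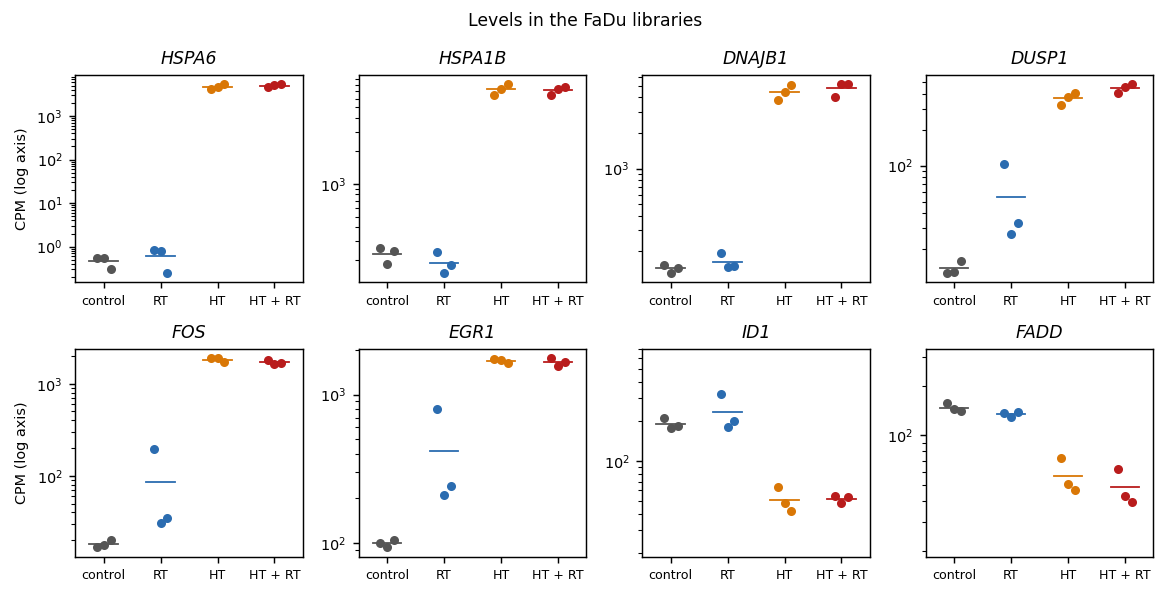
CPM of 8 genes in each of the 12 FaDu libraries (vertical log axis, 1 point per replicate, short line at the mean of 3) for control, RT, HT and HT + RT spheroids. In every one of the 6 rising genes the HT and HT + RT libraries lie above all control libraries, and in ID1 and FADD below them; replicate 1 of RT lies above the other RT libraries in FOS and EGR1.

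The stretches upstream of the main chaperone genes that rose are shown because heat shock elements lie in such regions. They are the 200 bases before the annotated start, 5′ to 3′, from the RefSeq promoter table for GRCh38.p14, and capitals mark 2 adjoining heat shock units, GAANNTTC or TTCNNGAA, each of which reads the same on both strands. HSPA6 is at chr1:161524340-161524539 on the plus strand and holds 3 such matches, 2 of them overlapping. HSPA1A at chr6:31815343-31815542 on the plus strand and HSPA1B at chr6:31827538-31827737 on the plus strand hold 1 each, at nearly the same distance from the start. DNAJB1 at chr19:14518398-14518597 on the minus strand and DNAJA4 at chr15:78264362-78264561 on the plus strand hold 2, each shown for 1 of their 3 listed starts. HSPB1 at chr7:76302473-76302672 on the plus strand and ZFAND2A at chr7:1160197-1160396 on the minus strand hold 1.
HSPA6: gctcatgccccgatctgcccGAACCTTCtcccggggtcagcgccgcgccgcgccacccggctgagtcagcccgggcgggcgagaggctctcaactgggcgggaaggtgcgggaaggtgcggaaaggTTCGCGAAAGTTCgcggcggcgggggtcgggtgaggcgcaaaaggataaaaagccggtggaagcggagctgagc
HSPA1A: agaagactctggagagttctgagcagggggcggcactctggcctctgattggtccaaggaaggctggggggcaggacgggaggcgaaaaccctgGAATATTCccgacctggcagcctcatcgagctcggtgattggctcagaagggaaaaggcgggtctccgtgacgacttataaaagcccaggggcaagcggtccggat
HSPA1B: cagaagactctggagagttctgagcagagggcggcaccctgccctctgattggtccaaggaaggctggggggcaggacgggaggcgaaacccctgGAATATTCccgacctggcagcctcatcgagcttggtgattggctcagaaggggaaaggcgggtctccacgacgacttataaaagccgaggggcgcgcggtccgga
DNAJB1: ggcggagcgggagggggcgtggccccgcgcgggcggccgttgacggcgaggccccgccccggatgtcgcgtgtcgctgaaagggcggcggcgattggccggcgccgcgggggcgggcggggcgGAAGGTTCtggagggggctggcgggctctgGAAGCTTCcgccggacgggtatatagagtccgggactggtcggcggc
DNAJA4: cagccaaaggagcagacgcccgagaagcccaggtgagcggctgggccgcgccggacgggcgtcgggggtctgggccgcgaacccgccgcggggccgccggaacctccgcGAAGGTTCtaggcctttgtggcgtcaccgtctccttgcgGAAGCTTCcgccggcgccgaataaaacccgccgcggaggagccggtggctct
HSPB1: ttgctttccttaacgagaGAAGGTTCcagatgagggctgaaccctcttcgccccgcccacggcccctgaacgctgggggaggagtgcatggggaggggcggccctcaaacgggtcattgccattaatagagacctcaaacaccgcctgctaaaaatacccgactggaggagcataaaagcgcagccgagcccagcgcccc
ZFAND2A: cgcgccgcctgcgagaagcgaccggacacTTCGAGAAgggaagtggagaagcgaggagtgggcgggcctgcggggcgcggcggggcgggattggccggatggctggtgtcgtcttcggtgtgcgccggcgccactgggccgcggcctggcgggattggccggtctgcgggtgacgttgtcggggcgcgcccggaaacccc

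A match is a description of letters and not evidence of binding. Over windows from 250 bases before to 50 after the start, the paired units occurred in 13.5% of all 35116 listed promoters, 10.5% of those of genes tested, 13.7% of the 473 promoters of genes called up and 8.97% of the 78 of genes called down. A promoter was listed for 346 of the 808 genes called up and 64 of the 102 called down. A run of 3 alternating units was rarer, in 0.49% of all promoters and 0.339% of those of genes tested. It was in 1.27% of those of genes called up and 0% of those of genes called down. The 6 promoters of genes called up belong to HSPA6, TDRG1, SERPINH1, HYPK, DNAJA1 and CD83. The windows of BAG3 and HSPH1 do not hold the paired letters.

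Among the J-domain proteins, which deliver clients to HSP70, 4 of 42 tested rose and 0 fell, with a median log2 fold change of -0.01, where 5.08% of all genes tested rose. At an adjusted p alone 13 passed by edgeR, as did 19.3% of all genes tested. DNAJB1 had 153, 131 and 146 CPM in controls and 4066, 5203 and 5162 CPM after HT + RT, with no overlap (log2 fold change 5.08, standard error 0.13, edgeR adjusted p = 3.01e-08). DNAJA4 (10.5 ± 1.64 to 161 ± 53.8 CPM, log2 fold change 3.94), DNAJB4 (35.2 ± 3.18 to 316 ± 84.3 CPM, 3.17) and DNAJA1 (232 ± 29.9 to 595 ± 89 CPM, 1.36) were the others. In DNAJA4, the HT + RT libraries varied between replicates, with 99.3, 187 and 197 CPM, replicate 1 being lowest.

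Small heat shock proteins, which hold unfolding proteins without using ATP, rose in 4 of 6 tested, with a median log2 fold change of 1.64. HSPB1 (HSP27) was by far the most abundant of these per kilobase and had 333, 419 and 420.2 CPM in controls and 1155, 1197 and 1412 CPM after HT + RT. Every treated library exceeded every control (log2 fold change 1.69, standard error 0.11, edgeR adjusted p = 2.18e-05). HSPB8, a partner of BAG3, rose from 1.98 ± 0.857 to 13.9 ± 4.75 CPM, CRYAB (alphaB-crystallin) from 2.32 ± 0.485 to 10.7 ± 2.29 CPM and HSPB6 from 0.448 ± 0.124 to 1.37 ± 0.136 CPM.

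Other chaperone systems held 1 called member or none. Of the 10 nucleotide exchange factors for HSP70, only BAG3 rose, a factor that links HSP70 to selective autophagy. It had 154, 137 and 140.0 CPM in controls and 454, 776 and 772 CPM after HT + RT, all above the controls, with replicate 1 lowest (log2 fold change 2.22, standard error 0.19, edgeR adjusted p = 8.98e-05). BAG6, the most abundant of these factors per kilobase, had a log2 fold change of 0.14. Among 18 genes of HSP90 and its co-chaperones (median log2 fold change 0.18), only FKBP4, a co-chaperone of steroid receptors, was called (305 ± 19.5 to 859.9 ± 31.4 CPM, log2 fold change 1.50). Of these 18, 15 had log2 fold changes above 0, and 6 passed an adjusted p alone by edgeR, as did 19.3% of all genes tested. Their summed level was 8255 ± 619 CPM in controls and 12856 ± 283 CPM after HT + RT. HSP90AB1, the constitutive HSP90 of the cytosol, had a log2 fold change of 0.57. The heat shock factors themselves were not called, with log2 fold changes of 0.17 for HSF1, -0.34 for HSF2, 0.25 for HSF4, 0.09 for their binding protein HSBP1 and 0.94 for HSBP1L1. HSF5 had too few counts to be tested. Of the 15 subunits of the cytosolic chaperonin and prefoldin (median 0.03) and the 14 mitochondrial chaperones and proteases, 0 were called by edgeR. CCT6A, a chaperonin subunit, had a log2 fold change of -0.06, and HSPD1, the mitochondrial HSP60, one of 0.75.

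ZFAND2A, a stress-induced protein that associates with the proteasome, had 4.34, 4.24 and 4.89 CPM in controls and 119, 122 and 123 CPM after HT + RT, with narrow spread in both groups (log2 fold change 4.75, standard error 0.08, edgeR adjusted p = 2.50e-09). In its list, polyubiquitin genes and ubiquitin adaptors, 3 of 8 rose and 0 fell (median log2 fold change 0.15), where 5.08% of all genes rose. The summed level of this list was 3708 ± 60.1 CPM (SD, n = 3) in controls and 7461 ± 342 CPM after HT + RT. Of the 32 proteasome subunits tested 0 were called by edgeR, with log2 fold changes from -0.42 to 0.14, 0.07 for the abundant subunit PSMA7.

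Chaperones and sensors of the endoplasmic reticulum had a median log2 fold change of -0.01, and 1 of 23 was called, where 5.72% of all genes were. This was DERL3, which takes part in the removal of misfolded proteins from this compartment. It rested on 4 control counts and reached only 1.55 ± 0.601 CPM (log2 fold change 4.41). CALR, a chaperone, and ERN1, a sensor of unfolded proteins, had log2 fold changes of -0.07 and 0.19. Of 25 genes of the integrated stress response, which slows translation, 3 rose (median 0.12), where 5.08% of all genes did. ATF3, a transcription factor, had 3.67, 3.37 and 2.87 CPM in controls and 69.6, 116 and 118 CPM after HT + RT, without overlap (log2 fold change 4.95, standard error 0.24, edgeR adjusted p = 2.32e-06). PPP1R15A (GADD34), which restores translation by guiding a phosphatase to eIF2alpha, rose from 24.6 ± 2.27 to 317 ± 13.2 CPM (log2 fold change 3.69), and CHAC1, a glutathione-degrading enzyme, from 3.03 ± 0.454 to 12.3 ± 1.34 CPM (2.03). DDIT3 (CHOP), another transcription factor of this pathway, had a log2 fold change of 0.80 and was not called, and neither was SLC7A5 (-0.20), an amino acid transporter. The study reports DDIT3 and ERN1 as significantly induced in its RNA-Seq of both lines after HT and HT + RT. Neither was called here in FaDu spheroids, by edgeR or by DESeq2, and the reason was not tested.

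Immediate early genes were the group with the largest share of changed members. Of 23 immediate early transcription factors, 18 rose and 0 fell, with a median log2 fold change of 3.28, and of 19 other immediate early genes 16 rose (median 1.82). FOS, a subunit of AP-1, had 16.7, 17.8 and 20.1 CPM in controls and 1829.8, 1654 and 1689 CPM after HT + RT. EGR1, a zinc-finger factor induced by growth signals and stress, had 100.1, 93.2 and 104 and 1759, 1559.7 and 1648 CPM. Both groups were tight and far apart in each of these genes (FOS: log2 fold change 6.56, standard error 0.10, edgeR adjusted p = 1.44e-09; EGR1: log2 fold change 4.06, standard error 0.08, edgeR adjusted p = 9.05e-09). NR4A1, an orphan nuclear receptor, rose from 39.2 ± 8.68 to 1109 ± 107 CPM, and EGR4, EGR2 and EGR3 had log2 fold changes of 5.74, 4.51 and 4.45. JUNB, another AP-1 subunit, rose by less, from 133 ± 10.8 to 386 ± 12 CPM (1.55). The summed level of the transcription factors was 1187 ± 38.9 CPM (SD, n = 3) in controls and 8111 ± 291 CPM after HT + RT.

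ARC, best known as a regulator of synapses in neurons, was nearly silent in controls with 6 counts over 3 libraries and reached 22.6 ± 3.19 CPM (log2 fold change 7.72, edgeR adjusted p = 1.10e-06). CYR61, a secreted matrix protein, rose from 19.1 ± 2.23 to 279 ± 10.6 CPM, GEM, a small GTPase, from 1.47 ± 0.439 to 26.6 ± 13.4 CPM, and TRIB1, a pseudokinase, from 22.2 ± 1.88 to 279 ± 112 CPM. In TRIB1, the HT + RT libraries had 149.9, 341 and 346 CPM, so replicate 1 was well under the others and still above the controls. MCL1, an anti-apoptotic member of the BCL2 family, rose from 356 ± 29.8 to 1213 ± 67.4 CPM (1.77). Of 10 MAP kinase phosphatases, which switch off the kinases that induce these genes, 4 rose (median 0.52). DUSP1, which acts on JNK and p38, had 12.6, 12.7 and 15.9 CPM in controls and 406, 457 and 484 CPM after HT + RT, with no overlap (log2 fold change 5.03, standard error 0.12, edgeR adjusted p = 2.08e-08). DUSP2, DUSP8 and DUSP5 had log2 fold changes of 4.78, 2.97 and 2.23, and DUSP7, the most abundant of the list per kilobase in controls, was not called (-0.24).

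The upstream stretches of EGR1 and DUSP1 are shown for the elements that such genes are known for, again as 200 bases before the start from RefSeq on GRCh38.p14. EGR1 at chr5:138465279-138465478 on the plus strand holds 2 CArG boxes, the element of serum response factor, in capitals. DUSP1 at chr5:172771196-172771395 on the minus strand holds 1 cyclic AMP response element, TGACGTCA, in capitals.
EGR1: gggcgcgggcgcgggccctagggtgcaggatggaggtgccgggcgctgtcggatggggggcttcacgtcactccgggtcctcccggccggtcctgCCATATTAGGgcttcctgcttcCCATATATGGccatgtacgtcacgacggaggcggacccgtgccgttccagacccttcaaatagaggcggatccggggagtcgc
DUSP1: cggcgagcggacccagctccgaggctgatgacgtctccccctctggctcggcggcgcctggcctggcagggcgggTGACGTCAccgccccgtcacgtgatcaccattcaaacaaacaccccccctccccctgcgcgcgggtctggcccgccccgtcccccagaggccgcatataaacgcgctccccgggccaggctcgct
The CArG box occurred in 1.29% of all promoters, 1.16% of those of genes tested, 1.27% of those of genes called up and 0% of those of genes called down. In the same order, TGACGTCA occurred in 1.85%, 2.7%, 4.02% and 5.13%, the last on 4 promoters, and the AP-1 letters TGANTCA in 7.71%, 5.5%, 8.24% and 7.69%. Both strands were searched, and 23 promoters of the table hold the letters for both AP-1 and the cyclic AMP response element.

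Of 18 cytokine and chemokine genes tested, 11 rose and 0 fell (median log2 fold change 1.58). Under the alternative settings 7 to 11 rose, with a median of 0.97 to 1.73. IL6, an inflammatory cytokine, had 1.67, 1.09 and 1.1 CPM in controls and 35.5, 39.1 and 46.1 CPM after HT + RT, without overlap (log2 fold change 4.98, standard error 0.18, edgeR adjusted p = 3.26e-07). The chemokine genes CCL26 and CCL20 rose from 0.228 ± 0.101 to 3.95 ± 0.451 CPM and from 1.53 ± 0.45 to 12.2 ± 2.13 CPM. TNF was called on 3 control counts and 74 counts after HT + RT, a level of 1.31 ± 0.389 CPM. CXCL1, a neutrophil chemokine and the most abundant of the list per kilobase, was not called (0.25). Of 15 NF-kappaB subunits and feedback genes 3 rose (median 0.38): ZC3H12A, an RNase that degrades inflammatory transcripts (25.2 ± 2.24 to 134 ± 21.7 CPM), TNFAIP3, a ubiquitin-editing inhibitor (53.4 ± 7.82 to 194 ± 58.3 CPM), and NFKBIZ, an atypical nuclear inhibitor protein (22.7 ± 1.71 to 78.8 ± 10.4 CPM). TNFAIP2, the most abundant per kilobase, had a log2 fold change of 0.50 and was not called.

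Genes tied to DNA damage were looked at next. Of 23 p53 targets, 2 rose, where 5.08% of all genes did (median log2 fold change -0.15), and 9 passed an adjusted p alone by edgeR, against 3067 of all 15896 genes tested (19.3%). The 2 were PMAIP1 (NOXA), a pro-apoptotic protein (10.7 ± 1.76 to 23.9 ± 1.6 CPM, 1.16), and GADD45A, a stress sensor (16.8 ± 2.56 to 34.9 ± 0.0177 CPM, 1.06). The call of GADD45A was lost without control replicate 3, where its log2 fold change was 0.99. BAX, the most abundant of the list per kilobase, had a log2 fold change of 0.08. Of 38 genes of the DNA double-strand break response 0 were called by edgeR, with log2 fold changes from -0.80 to 0.36 and 0.09 for XRCC6 (Ku70). Of 34 cell cycle genes (median -0.08) only CDC25A, a phosphatase that activates cyclin-dependent kinases, was called. It had 30.3, 28.6 and 25 CPM in controls and 15.1, 11.6 and 11.5 CPM after HT + RT, all treated libraries being lower (log2 fold change -1.14, standard error 0.13, edgeR adjusted p = 4.40e-04). CCND1 (cyclin D1) had a log2 fold change of -0.46.

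In the Notch pathway 4 of 14 genes rose and 1 fell (median log2 fold change -0.02), where 5.08% of all genes rose and 0.642% fell. The ligand gene DLL4 rose from 0.193 ± 0.21 to 1.37 ± 0.278 CPM, the target genes HES1, NRARP and HEY1 had log2 fold changes of 1.24, 1.46 and 1.68, and LFNG, a glycosyltransferase that modifies Notch receptors, fell from 15.8 ± 3.79 to 4.99 ± 0.804 CPM (-1.68). HEY1 was under 1 CPM in both groups, and its call was lost without control replicate 2 (1.71, edgeR adjusted p = 0.0611), control replicate 3 (1.56, edgeR adjusted p = 0.0837) or HT + RT replicate 3 (1.39, edgeR adjusted p = 0.108), and by DESeq2 (1.67, DESeq2 adjusted p = 0.0674). Among 11 BMP and TGF-beta targets 4 rose and 1 fell (median 0.54). Under the alternative settings 2 to 4 Notch genes and 2 to 5 of these targets rose. ID2, BAMBI, BMP4 and the inhibitor gene SMAD7 rose by 3.35, 2.23, 1.71 and 1.61, and the call of BMP4 was lost without control replicate 2 (1.42) or HT + RT replicate 3 (1.68).

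ID1, which blocks DNA binding by basic helix-loop-helix factors, had the largest loss in CPM of all genes called. It had 212, 177 and 185 CPM in controls and 54.2, 47.9 and 53.1 CPM after HT + RT, and no library of either group came near the other (log2 fold change -1.88, standard error 0.08, edgeR adjusted p = 1.56e-06). Its upstream 200 bases, at chr20:31605089-31605288 on the plus strand, are shown because they hold the paired heat shock units, in capitals, although this gene fell.
ID1: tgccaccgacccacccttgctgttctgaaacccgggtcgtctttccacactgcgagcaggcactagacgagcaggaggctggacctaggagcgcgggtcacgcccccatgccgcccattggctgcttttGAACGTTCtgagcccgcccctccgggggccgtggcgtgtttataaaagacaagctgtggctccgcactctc
FADD, the adaptor of death receptors, was next, with 156, 144 and 141 CPM in controls and 62.8, 42.9 and 39.3 CPM after HT + RT, replicate 1 being the highest of the treated libraries (log2 fold change -1.61, standard error 0.15, edgeR adjusted p = 1.81e-04). AMD1, an enzyme of polyamine synthesis, fell from 153 ± 4.49 to 69.3 ± 3.17 CPM (-1.14), PPP1R10, a nuclear partner of protein phosphatase 1, from 136 ± 1.76 to 59.4 ± 3.63 CPM (-1.19), and RIPK4, a kinase of keratinocyte differentiation, from 79.5 ± 15.8 to 19.9 ± 2.34 CPM. In none of these did the groups overlap, as in all 102 genes called down.

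Where the average log2 CPM was 1 or more and the groups did not overlap, the lowest log2 fold changes were those of the lincRNA ZKSCAN2-DT (-2.28, 3.5 ± 0.698 to 0.685 ± 0.361 CPM), the antisense gene AC132192.2 (-2.27) and CCDC71 (-2.16, 13.8 ± 1.25 to 3.1 ± 0.558 CPM). They were followed by RIPK4, S1PR5, a receptor for sphingosine 1-phosphate (-1.90, 21.7 ± 1.61 to 5.81 ± 0.258 CPM), ID1, the small nucleolar RNA gene SNORD104 (-1.83), LFNG, MIEF2, an adaptor of mitochondrial division (-1.65), and MRM1, a methyltransferase of mitochondrial ribosomal RNA (-1.62). At the other end stood HSPA7, HSPA6, the lincRNA AC025259.3 (8.71, on 5 control counts), ARC, C11orf96 (7.71, 0.147 ± 0.0638 to 32.8 ± 10.1 CPM), FOS, the antisense gene AC005841.1 (6.54), RBFOX3, a splicing factor of neurons (6.20, 0.3 ± 0.377 to 21.6 ± 4.84 CPM), and OVOL1-AS1 (6.08). The small nucleolar RNA gene SNORA20 was also among them, with 1 count in the controls and 340 counts after HT + RT. No strand setting for counting is given in the sources used here, so values of antisense genes are uncertain.

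The next groups are given as a background, where over all genes tested 5.72% were called. Of 26 splicing regulators (median log2 fold change 0.04), only CLK1, a kinase of splicing factors, rose (26.9 ± 4.45 to 69.6 ± 18.2 CPM), and HNRNPA1, an abundant RNA-binding protein, had a log2 fold change of 0.12. Of 33 replication-dependent histone genes (median -0.04), HIST3H2A (1.47) and HIST2H2BE (1.01) rose, and HIST1H2BK, the most abundant per kilobase, had -0.12. HIST2H2BE was close to the threshold and lost its call without control replicate 1 (0.91), HT + RT replicate 2 (0.94) or HT + RT replicate 3 (0.99). The 82 cytosolic ribosomal protein genes had a median of 0.15, with 0.17 for RPS2, and the 13 messenger RNAs of the mitochondrial genome one of 0.25, with 0.13 for MT-CO2. By edgeR 0 genes of either group were called. The 8 reference genes lay between -0.06 (TFRC) and 0.23 (GAPDH), with 0.10 for ACTB, 0.08 for TBP, 0.18 for B2M, 0.10 for PPIA, -0.01 for GUSB and -0.00229 for HPRT1.

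**Figure D3:**
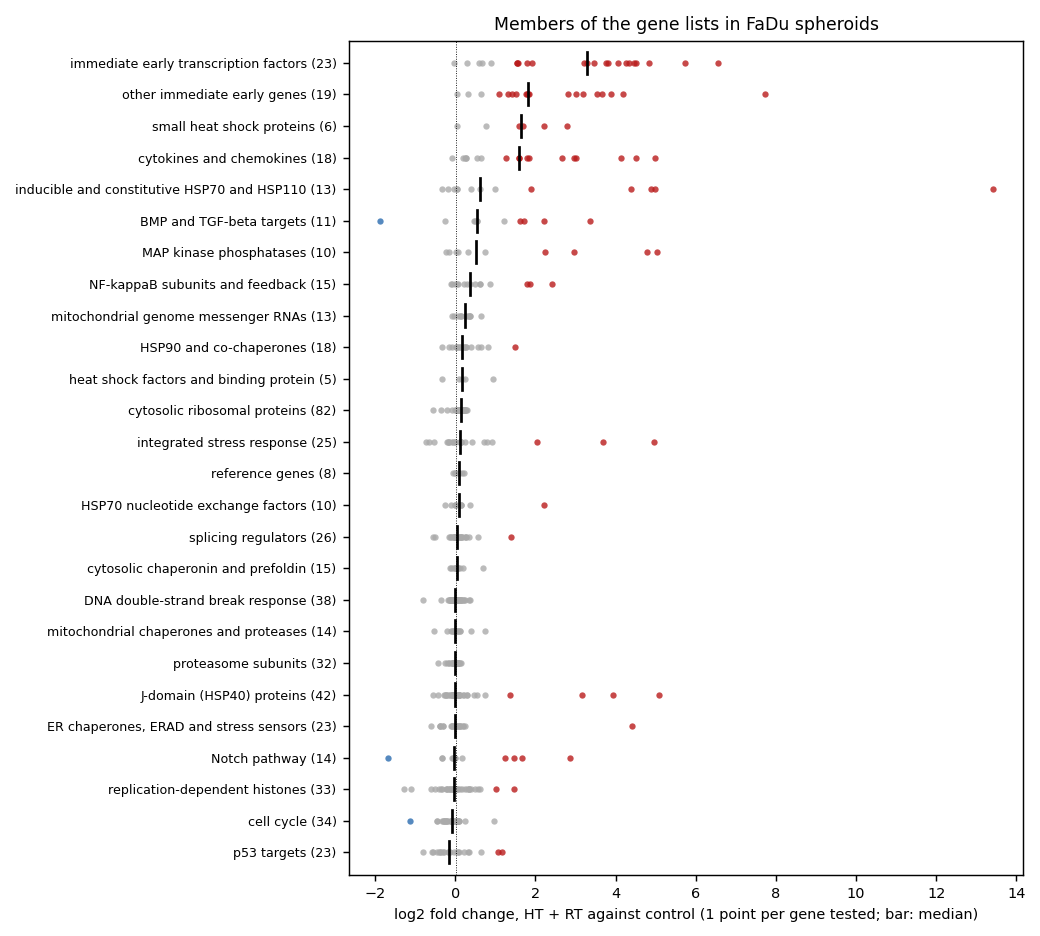
Log2 fold change of HT + RT against control FaDu spheroids (horizontal axis) for each tested member of 26 gene lists (vertical axis, number tested in brackets); red points were called up, blue called down, grey not called, and bars mark the median of each list. The immediate early transcription factors have the highest median, 3.28, and the members of the proteasome list lie close to the dotted line at the median of all genes, 0.01.

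By annotated type, the share of genes called up varied. Of 13219 protein-coding genes tested 3.21% rose, against 17.4% of 862 antisense genes, 9.38% of 597 lincRNA genes, 31.4% of 86 sense intronic genes and 48.6% of 35 genes of small nucleolar or Cajal body RNAs. Small RNA genes lie mostly within introns of host genes, and reads of the host cannot be told apart from theirs here. Called protein-coding genes were short in both directions. In those called up, the median span was 8.65 kb against 32.9 kb over all protein-coding genes tested, the median number of exons was 5 against 11, and 12.5% against 2.44% had a single exon. In those called down, the median span was 12.8 kb, the median number of exons 5, and 11.9% had a single exon. Protein-coding genes called up were also low before treatment, 41% of them lying under 1 CPM in controls against 6.01% of all protein-coding genes tested. Over all gene types these shares were 57.8% and 11.8%. A gene that is low in controls mostly enters the test only if it is higher after treatment, which bears on these shares and on those by type. With at least 10 counts required in every library, a setting added for this table after the data were seen, 2.29% of protein-coding, 7.66% of antisense, 6.02% of lincRNA and 14% of sense intronic genes rose, and only 5 small nucleolar or Cajal body RNA genes could be tested.

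Genes called up often lay beside each other. In gene order, 190 of 804 genes called up that could be placed (23.6%) had a neighbour that was also called up, against 9.68% of all genes tested. For the next gene upstream on the same strand the shares were 7.84% and 2.26%. Of the genes called up, 57.8% lay under 1 CPM in controls, and such genes mostly entered the test through the treated group. The shares of neighbours were not taken without them, so no conclusion is drawn from the difference. Among antisense genes called up whose overlapping protein-coding gene was tested, 11 of 140 had a partner that rose as well (7.86%), against 10 of 583 antisense genes not called (1.72%). The same limit holds for these shares, since 150 of 862 antisense genes rose and, with at least 10 counts in every library, 42 of 548. The median log2 fold change of the partners of antisense genes called up was 0.04.

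**Figure D4:**
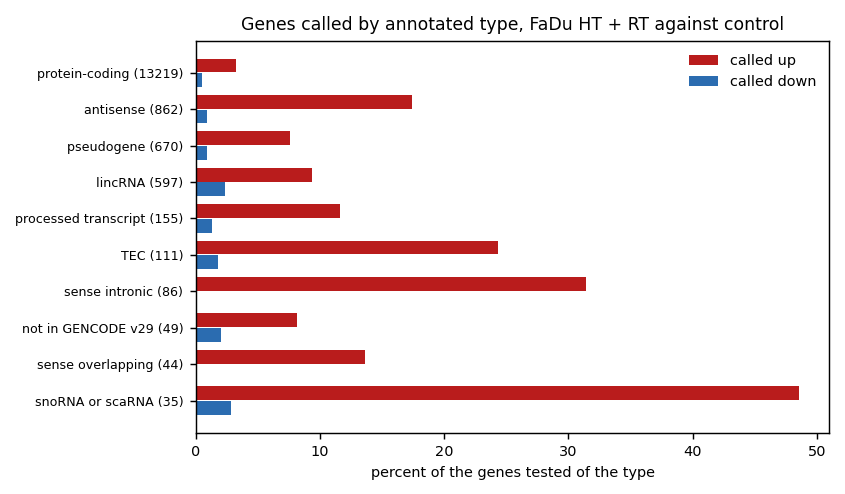
Share of the genes tested (horizontal axis, percent, from 0) that were called up (red) or down (blue) in HT + RT against control FaDu spheroids, by annotated gene type (vertical axis, number tested in brackets; types with at least 30 genes tested). Small nucleolar and Cajal body RNA genes have the largest share called up, 48.6%, and protein-coding genes the smallest, 3.21%.

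HT + RT spheroids were compared with HT spheroids to see what the radiation added to the heat. By edgeR 0 of 16145 genes were called (0.0%), with 361 at an unadjusted p under 0.05, and DESeq2 called 2. The nearest was KLF6, a zinc-finger transcription factor, with 33.1, 29 and 33.3 CPM in the HT libraries and 63.6, 84.8 and 78.7 CPM in the HT + RT libraries. The groups did not overlap, and the log2 fold change of 1.25 had an edgeR adjusted p of 0.057. Control and RT spheroids had 26.3 ± 4.38 and 45.9 ± 15.2 CPM. The next smallest p-values belonged to RHOB, a small GTPase induced by DNA damage (102 ± 7.28 and 153 ± 5.92 CPM, log2 fold change 0.58, edgeR adjusted p = 0.268), CHAC1 (0.91, edgeR adjusted p = 0.869), the mitochondrial tRNA gene MT-TY (0.56) and C15orf39 (0.50). With the replicate number as a block, 2 genes rose, KLF6 (1.25, edgeR adjusted p = 4.05e-10) and the mitochondrial tRNA gene MT-TT (1.39, edgeR adjusted p = 1.60e-04), and 1 fell, AC105339.2 (-1.28, edgeR adjusted p = 0.00633). KLF6 was also called without HT + RT replicate 1 (1.36, edgeR adjusted p = 0.00454). MT-TT and AC105339.2 are named after their values were seen.

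Heat shock genes are given for these groups with the block, since same-numbered libraries deviated together; this was added after the data were seen. HSPA6 stood at 4741 ± 638 CPM (SD, n = 3) in HT spheroids and at 5016 ± 413 CPM in HT + RT spheroids (log2 fold change 0.09, edgeR adjusted p = 0.457), HSPA1B at 7366 ± 828 and 7197 ± 619 CPM (-0.03, edgeR adjusted p = 0.877), and DNAJB1 at 4459 ± 629.7 and 4810.5 ± 645 CPM (0.11, edgeR adjusted p = 0.247). BAG3 had 298, 399 and 589 CPM after HT and, in the same order of replicates, 454, 776 and 772 CPM with RT added. It was higher in all 3 pairs (0.65, edgeR adjusted p = 7.37e-07), with a size under the fold threshold. At an adjusted p alone, edgeR with the block gave 115 genes higher and 39 lower after HT + RT than after HT, 0.954% of those tested, with a median absolute log2 fold change of 0.33. A p above the threshold does not show that HT and HT + RT spheroids were equal.

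Against RT spheroids, which had the same dose without heat, 857 of 15905 genes were called by edgeR (5.39%), 757 up (4.76%) and 100 down (0.629%). This comparison shares its HT + RT libraries with the one against controls, so the values stand side by side and are no independent evidence. HSPA6 and HSPA1B were 0.623 ± 0.325 and 190.4 ± 42.2 CPM after RT, and their log2 fold changes were 13.05 and 5.25 against RT and 13.40 and 4.97 against controls. HSPA8 passed the fold threshold against RT (1.15, edgeR adjusted p = 1.53e-04). Of 23 immediate early transcription factors 16 were called up against RT, with a median of 1.80 where the median against controls was 3.28. The summed level of this list was 3126, 1546 and 1672 CPM in RT replicates 1, 2 and 3, so the values against RT depend on replicate 1. FOS had 195, 30.9 and 34.8 CPM in the RT libraries and EGR1 804, 208 and 243 CPM. RT replicate 1 was thus several times higher than RT replicates 2 and 3 in both genes, and all RT libraries were above all controls. Their log2 fold changes against RT were 4.32 and 1.99. JUNB (0.57), KLF6 (0.73), NFKBIZ (0.63), PMAIP1 (0.88) and GADD45A (0.15) rose against controls and were not called against RT. GADD45A was at 31.7 ± 4.29, 29.8 ± 7.3 and 34.9 ± 0.0177 CPM in RT, HT and HT + RT spheroids. AC022400.7 was among the lowest against RT (-1.93, against controls -1.38). CACNA1G, a calcium channel gene, had 1 count over the RT libraries and 4.53 ± 0.599 CPM after HT + RT.

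Whether the response to HT + RT differed between FaDu and SAS spheroids was tested directly, as the difference of the log2 fold changes of the lines in 1 fit. By edgeR 586 of 17219 genes were called (3.4%), 246 with a higher change in FaDu (1.43%) and 340 with a lower one (1.97%). The lines received different doses, 7 and 10 Gy, so line and dose cannot be told apart. For this comparison CPM are scaled over the libraries of both lines. HSPA1B, HSPA1A and DNAJB1 were not among the genes called. For HSPA1B, the difference was 0.23 (edgeR adjusted p = 0.508), with 223 ± 37.3 and 6821 ± 568 CPM in FaDu and 164 ± 20.5 and 4461 ± 410.4 CPM in SAS control and HT + RT spheroids (SD, n = 3). The difference was 0.22 for HSPA1A and 0.80 for DNAJB1, the latter not called only because its size was under the threshold (edgeR adjusted p = 0.00131). HSPA6 changed more in FaDu (difference 1.73, edgeR adjusted p = 0.0128), with 4754 ± 381 and 2560.4 ± 207 CPM after HT + RT in FaDu and SAS spheroids. The FaDu controls of this gene were under 1 CPM, so the size of its difference is uncertain.

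Some chaperones changed less in FaDu. HSPB1 was not called (-0.75), its size being under the fold threshold. Small heat shock proteins, HSPB1 among them, summed to 443 ± 43.9 and 1275 ± 132 CPM in control and HT + RT FaDu spheroids. In those of SAS they summed to 439 ± 15.7 and 2303 ± 134 CPM. Over all genes tested 1.97% were called with a lower change and 1.43% with a higher one. Of 13 HSP70 and HSP110 genes 3 were lower and 1 was higher. Of 43 J-domain genes 1 was lower, and of 6 small heat shock proteins 2 were. By edgeR 0 were called of 18 genes of HSP90 and its co-chaperones, 10 nucleotide exchange factors and 15 chaperonin and prefoldin subunits. Their median differences were -0.31, -0.06 and -0.07. At an adjusted p alone 7, 2 and 3 of these passed by edgeR, and 3 of the 6 small heat shock proteins. Over all 17219 genes 515 passed with a higher change in FaDu and 737 with a lower one. HSPB8 went from 1.92 ± 0.824 to 13.2 ± 4.44 CPM in FaDu, whereas SAS spheroids had 0.424 ± 0.151 CPM before and 30.3 ± 5.33 CPM afterwards (difference -3.33, edgeR adjusted p = 0.00131). CRYAB had no count in any SAS control library and 5.67 ± 1.88 CPM after HT + RT there, against 2.25 ± 0.464 and 10.2 ± 2.16 CPM in FaDu. DNAJB4 (-1.39, edgeR adjusted p = 0.00236), HSPH1 (-1.09, edgeR adjusted p = 0.00134), CLK1 (-1.59) and BMP4 (-2.74) also changed less in FaDu. ID1, whose level in SAS was 93.6 ± 6.82 CPM in controls and 91.1 ± 4.17 CPM after HT + RT, differed by -1.82 (edgeR adjusted p = 1.38e-07), its fall being seen in FaDu.

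Immediate early genes changed more in FaDu: 17 of 23 transcription factors and 12 of 19 other genes were called with a higher change, and 0 with a lower one. Over all genes tested in this comparison the shares were 1.43% and 1.97%. The levels of immediate early genes in controls differed as well. The transcription factors summed to 1149.9 ± 41.2 CPM in FaDu and 2405 ± 284 CPM in SAS controls, and to 7689 ± 258 and 3340.0 ± 184 CPM after HT + RT. EGR3 had 5.69 ± 1.52 and 122 ± 29.6 CPM in FaDu against 80.5 ± 12.3 and 51.4 ± 6.26 CPM in SAS (difference 5.12, edgeR adjusted p = 4.70e-08). CYR61 had 18.5 ± 2.24 and 264 ± 8.44 CPM in FaDu against 883 ± 17.4 and 793 ± 72.1 CPM in SAS (difference 4.05, edgeR adjusted p = 2.17e-11). In both genes the SAS controls were already high. DUSP1 differed by 3.26 (edgeR adjusted p = 2.28e-09), ATF3 by 2.54 (edgeR adjusted p = 6.67e-05) and PPP1R15A by 1.76 (edgeR adjusted p = 4.81e-07).

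**Figure D5:**
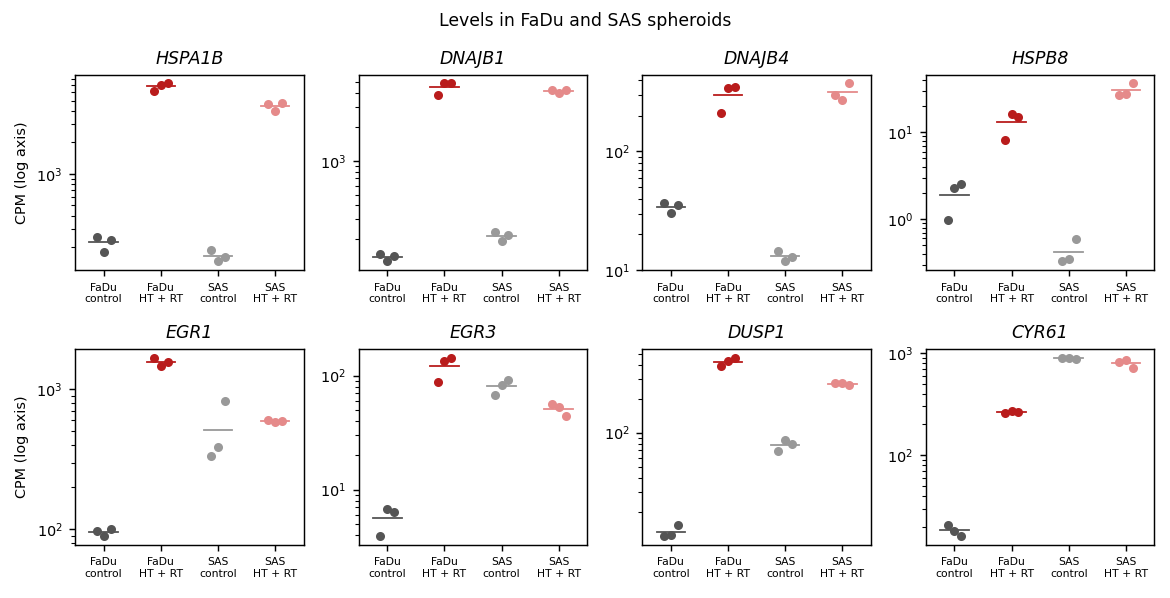
CPM, scaled over both lines, of 4 chaperone genes (upper row) and 4 immediate early or phosphatase genes (lower row) in control and HT + RT libraries of FaDu and SAS spheroids (vertical log axis, 1 point per replicate, short line at the mean of 3). The chaperone genes rise in both lines, whereas EGR3 and CYR61 are high in SAS controls and low in FaDu controls.

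The replicates were separate experiments by the study's methods, and the p-values measure the spread between 3 of them at 1 time point and 1 dose. Transcript levels do not show protein amounts, and why the replicate 1 libraries stand apart was not tested.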

How the data were processed

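Libraries were directional (NEBNext). The authors deposited raw counts of reads per gene; the submitters' notes name bcl2fastq and DESeq2. The aligner, counting program, strand setting and annotation are not given in the sources used here, and the labels' build, mm9, is a mouse build. Gene types, order and exon lengths came from GENCODE v29, with 56898 of 57500 identifiers found.

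The test was that of edgeR 4.0.16 under R 4.3.3 on raw counts (TMM, filterByExpr with a minimum count of 10, quasi-likelihood F test, Benjamini-Hochberg over all genes tested), fitting only the groups compared. Standard errors are the log2 fold change over the square root of F. DESeq2 1.42.0 was an alternative.

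The genes and the 27 lists were chosen with earlier results of these data known. The genes described were drawn from the 10 highest and 10 lowest called genes without overlap whose average log2 CPM was 1 or more, the 10 largest rises and 5 largest falls in CPM, up to 4 called members and the most abundant of each list (all members of short lists), up to 5 genes each way in the other comparisons, and the genes the study names; not every gene so chosen is described. Genes named beyond this were added after their values were seen.

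Same-numbered control and HT + RT libraries deviated together (correlations 0.513, 0.264 and 0.267; 0.307 to 0.642 with HT, 0.205 to 0.467 with RT, 0.148 to 0.256 in SAS). Replicates 2 and 3 also correlated across numbers (0.226 and 0.248), so in FaDu this mostly sets replicate 1 apart. Pairing by number was judged from the data only. It enters only the fits with the replicate number as a block. All other fits, and the calls and p-values not said to use the block, are unpaired.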

Additional observations from a re-analysis of the deposited data

Results flagged for a closer look

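The response to HT + RT differed between FaDu and SAS spheroids in 586 genes by edgeR's test of the difference itself. The changes furthest above those of SAS, where the average log2 CPM was 1 or more, were those of EGR4 (difference of log2 fold changes 6.23), ARC (5.57), EGR3 (5.12), the protease gene ADAMTS1 (4.41) and AC027290.2 (4.32). ADAMTS1 had 0.557 ± 0.276 and 5.57 ± 0.833 CPM in control and HT + RT FaDu spheroids and 81 ± 29.6 and 39.2 ± 4.94 CPM in those of SAS (SD, n = 3). EGR4 had 2.03 ± 0.624 and 107 ± 18.6 CPM in FaDu, and 4.24 ± 0.468 and 3.07 ± 1.17 CPM in SAS.

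The changes furthest below those of SAS were those of PNLDC1 (-7.88), CRYAB (-7.54), the readthrough gene HSPE1-MOB4 (-6.07), KLHL35 (-5.94) and SESN3 (-5.76), a stress-induced sestrin. PNLDC1, CRYAB and KLHL35 had no count in any SAS control library, so their fitted differences depend on the small constant added by the fit. HSPE1-MOB4 went from 0.231 ± 0.202 to 14.5 ± 1.03 CPM in SAS and had 0.159 ± 0.0909 and 0.151 ± 0.123 CPM in FaDu (SD, n = 3). Its reads may belong to HSPE1, a mitochondrial chaperone gene with which it overlaps. SESN3 had 0.156 ± 0.177 and 11 ± 1.8 CPM in SAS, and 11.9 ± 2.47 and 14.6 ± 4.28 CPM in FaDu. The lines also differ in dose, and its part was not tested.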

How the results depend on the processing

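The excess of rises over falls depended on the fold threshold. Against controls, 808 genes rose and 102 fell. With an adjusted p alone it was 1513 and 1554, so that 49.3% of calls were rises in place of 88.8%. Under the other changes of test, scaling, filter and libraries rises outnumbered falls, and no called gene among those named changed sign in a fit that tested it. Testing the fold change itself against 2-fold (glmTreat) gave 359 and 14. Without a filter on low counts 1338 rose, and with at least 10 counts in every library, which removes genes silent in controls, 411. Leaving out 1 library in turn gave 634 to 986 rises and 67 to 141 falls, lowest without HT + RT replicate 3. The fit without both replicate 1 libraries, added after seeing the data, gave 191 falls.

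Against RT spheroids (757 and 100), these settings gave 1490 and 1574 with an adjusted p alone, 334 and 15 with glmTreat, 1249 rises without a filter, 386 with the stricter filter, 563 to 921 rises and 64 to 129 falls with 1 library left out (lowest without HT + RT replicate 3), and 187 falls without the replicate 1 libraries. For the difference from SAS (246 and 340), they gave 515 and 737, 52 and 81, and, with the stricter filter, 159 and 208; with 1 library left out it was 168 to 272 and 275 to 364.

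Against HT spheroids, where edgeR called 0 genes (361 at an unadjusted p under 0.05), DESeq2 called 2 up (KLF6 and MT-TT). Without a filter it was 2 up (the same genes) and 1 down (AC105339.2), without the replicate 1 libraries 3 up (KLF6, KLF2 and MT-TT), and with 1 library left out 0 to 1. With the replicate number as a block, KLF6 and MT-TT rose and AC105339.2 fell (2 up, 1 down). With an adjusted p alone the block gave 115 higher and 39 lower, added after the data were seen, so the 0 depends on block and threshold. Beside these 3 genes, the block changed 1 call of the genes named by rule over the 4 comparisons, SNORA20 for the difference from SAS (edgeR adjusted p 0.0802 without and 0.0397 with it). It gave 896 and 122 against controls, 826 and 114 against RT, and 335 and 453 for the difference from SAS.

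Of 84 named calls against controls, 16 were lost with glmTreat: DNAJA1, HSPB6, PMAIP1, GADD45A, DLL4, HEY1, NRARP, BMP4, CLK1, HIST2H2BE and MT-TY among rises, and MIEF2, AMD1, PPP1R10, CDC25A and AC022400.7 among falls. With the main thresholds kept, those that lost their call under some other setting were HEY1, BMP4, HIST2H2BE, GADD45A and MT-TY. HIST2H2BE and MT-TY also lost it without both replicate 1 libraries. With library totals in place of TMM, GADD45A (0.97), HIST2H2BE (0.92) and MT-TY (0.95) were under the fold threshold. MT-TY was also under it without control replicate 1 (0.81). The cause was not tested. At 15203484 to 29452514 counts per library, genes of a few control counts, such as ARC or DERL3, have uncertain fold changes.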

Other observations

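Outside the lists, and named after their values were seen, several other genes rose in HT + RT against control FaDu spheroids. RRAD, a small GTPase, had 0.779, 0.815 and 0.617 CPM in controls and 26.9, 24.3 and 29 CPM after HT + RT, with no overlap (log2 fold change 5.19, standard error 0.16, edgeR adjusted p = 9.53e-08). SERPINH1 (HSP47), the collagen chaperone of the endoplasmic reticulum, rose from 215 ± 14.5 to 781 ± 39.2 CPM (SD, n = 3) (log2 fold change 1.87), and changed less than in SAS (difference -1.51). OVOL1, a transcription factor of epithelial differentiation, rose from 10.9 ± 0.557 to 88.9 ± 3.4 CPM (3.03), beside its antisense gene OVOL1-AS1, and THBS1, a matrix protein, from 19.6 ± 0.799 to 83.3 ± 11.4 CPM (2.10). MRPL18, a protein of the mitochondrial ribosome, rose from 60.7 ± 1.9 to 156 ± 16 CPM (1.36), and its neighbours SNORA20 and PNLDC1 were called up too.

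Among the other runs of adjoining genes called up were HSPA1L, HSPA1A and HSPA1B, SERTAD1, SERTAD3 and AC010271.1, and THBS1 with AC037198.1 and AC037198.2. Not all runs are named here. The longest held 5 genes on chromosome 12, GALNT9 among them, and 4 on chromosome 1, TTLL10 and TNFRSF18 among them. Of the small nucleolar and Cajal body RNA genes, 17 of 35 rose, where 5.08% of all genes did, among them SNORA31 (12 counts in the controls and 630 after HT + RT), and 1 fell, SNORD104. Most were low in controls and entered the test through the treated group. With at least 10 counts required in every library, 5 could be tested, of which SNORA71B rose and SNORD104 fell. Of 17 mitochondrial tRNA genes tested 7 rose, where 5.08% of all genes did, MT-TT (log2 fold change 2.16) and MT-TF (1.69) the most, whereas 0 of 13 mitochondrial messenger RNAs were called by edgeR. The mitochondrial share of counts was 1.98%, 2.77% and 2.49% in the controls and 3.26%, 2.51% and 2.1% after HT + RT. These groups overlapped.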
